A study of Mus musculus with 6 samples.

Results

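The genes described here are the enzymes, carriers and regulators that take glucose to lactate, together with the hypoxia-inducible system that acts on them. They were taken as a given list of 37 gene symbols, matched to the symbol column of the count tables, and all 37 were found among the 24014 genes there. Of these, 24 carry glucose from uptake to lactate export, 5 are pyruvate dehydrogenase and its kinases, and 8 are hypoxia-inducible factor (HIF) subunits, their hydroxylases and HIF targets. The measured tissue was mouse back skin epidermis at postnatal day 2, from wild type animals per the series' design text, with no strain named in the labels. In the blister group (3 libraries) suction through a 4 mm syringe at 523.4 ± 1.3 mmHg had raised a blister, typically 3 mm wide, and the skin was healing. The control group (3 libraries) was control skin of the same age. Epidermis of both groups was loosened overnight in 0.25% trypsin and its cells went through a 70 µm filter, with no sort for a cell type. Nothing in the sources ties each library to its own animal, so the p-values cover only the spread among the libraries at hand, part of which may be technical.

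Glycolysis splits glucose into pyruvate in the cytosol and yields ATP without oxygen. Lactate dehydrogenase then turns pyruvate into lactate, which leaves the cell through proton-linked monocarboxylate carriers, while pyruvate dehydrogenase sends pyruvate into mitochondria unless its kinases switch it off. Most steps are served by paralogous enzymes, called isoforms here, that differ in kinetics and tissue range. HIF, a dimer of an oxygen-labile alpha subunit and ARNT, binds the letters ACGTG or GCGTG in many glycolytic genes, and prolyl hydroxylases mark its alpha subunit for destruction when oxygen is present. Keratinocytes are known as strongly glycolytic cells that release lactate.

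Library totals ran from 7600567 to 15912863 counts. Levels are given in CPM, the count of a gene relative to the library total after correction by a TMM factor that balances libraries over most genes, and n is 3 libraries a group throughout. Together the 37 genes took 0.655%, 0.846% and 0.643% of the counts of blister 1 to 3 and 0.441%, 0.405% and 0.358% of those of control 1 to 3. Markers of keratinocytes were the most abundant of the cell type lists, with summed levels of 114430 to 206490 CPM in the blister libraries and 67703 to 93130 CPM in the controls (Krt1 the most abundant), and 6 of 10 rose. Some markers of other cells moved with the groups as well, where 9.74% of all genes tested rose and 11.6% fell. Neutrophil markers rose in 11 of 11 tested (320 to 1042 CPM summed in blister, 30.4 to 38.7 CPM in control, S100a9 being the most abundant), hair follicle markers fell in 9 of 10 (186 to 596 against 1528 to 2632 CPM, Krt71 the most abundant), and dermal fibroblast markers fell in 3 of 10 (584 to 1404 against 943 to 7263 CPM, Col3a1 the most abundant). Control 3 held the 7263 CPM of dermal markers and also 187.6 CPM of muscle markers, which summed to between 9.34 and 14.2 CPM in the other libraries. Of the remaining lists, 0 of 4 tested muscle markers (led by Mylpf), 0 of 8 macrophage and Langerhans cell markers (led by Csf1r) and 0 of 2 adipocyte markers (led by Fabp4, with Lep at 0) passed the test in either direction. Endothelial markers (led by Pecam1) fell in 1 of 7, and erythroid markers (led by Alas2) in 1 of 2, with Hba-a1, Hba-a2, Hbb-b1 and Hbb-b2 at 0 in all libraries. Nothing particular to the endothelial and erythroid lists is read from these counts. The female-specific RNA Xist read 838, 879 and 8.49 CPM over the blister libraries, in numbered order, and 1409, 16.9 and 0.512 CPM over the controls, so it was high in some libraries of each group and low in others. In bulk RNA of this kind, fewer cells of a type and less RNA per cell cannot be told apart. The dermal marker level and the Xist level were each added to the fit, and the part of neutrophils and follicle cells in the results below was not tested.

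Set against control skin, the blister libraries show which metabolic genes a healing epidermis carries at other levels. Carriers and enzymes from glucose uptake to lactate export were mostly higher in the blister libraries: of the 24 genes, 14 rose, 1 fell and 9 did not pass the test (edgeR's quasi-likelihood test, Benjamini-Hochberg adjusted p under 0.05 over the 14028 genes tested). Of all 14028 genes, 9.74% rose and 11.6% fell. The lactate exporter Slc16a3 rose most, 5.39-fold, followed by the pyruvate kinase Pkm at 3.67-fold and the glucose carrier Slc2a1 at 2.95-fold. Both falls were of genes with a paralogue that rose, Ldhb beside Ldha and Pdk2 beside Pdk1. Among the HIF genes, Hif1a rose 2.34-fold, and only Egln3 and Bnip3 among the other 7 passed the test.

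All 37 genes passed the filter on low counts. Of them 18 rose (48.6%) and 2 fell (5.41%). Over all genes tested, 9.74% rose and 11.6% fell. Blister and control libraries did not overlap for 18 of the genes in the upward direction (48.6%, where 21.4% of all genes did so) and for 4 in the downward direction (10.8%, where 23.2% did so). Those 4 were Pfkm, Eno2, Ldhb and Pdk2. The median log2 fold change of the 37 was 0.61, against 0.00 for all genes tested. Of the 20 genes called, 11 kept the call in all 19 alternative fits (Slc2a1, Pfkl, Pfkp, Tpi1, Pgk1, Pgam1, Pkm, Ldha, Slc16a3, Pdk2 and Hif1a), and 0 changed sign in any. With the mean dermal marker level in the fit, 10 of the 18 still rose, and Hk2, Gpi1, Aldoa, Gapdh, Slc16a1, Pdk1, Egln3 and Bnip3 did not pass. Over all genes, 399 rose in that fit in place of 1367. The log2 fold changes of Gpi1 (0.81), Gapdh (0.95), Pdk1 (0.69) and Bnip3 (0.78) were larger there than in the main fit. Those of Hk2 (0.43), Aldoa (0.85), Slc16a1 (0.81) and Egln3 (0.57) were smaller. With the Xist level in the fit, 16 still rose. Without single libraries the number that rose ran from 11 (control 1 left out) to 21 (blister 3 left out).

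**Figure D1:**
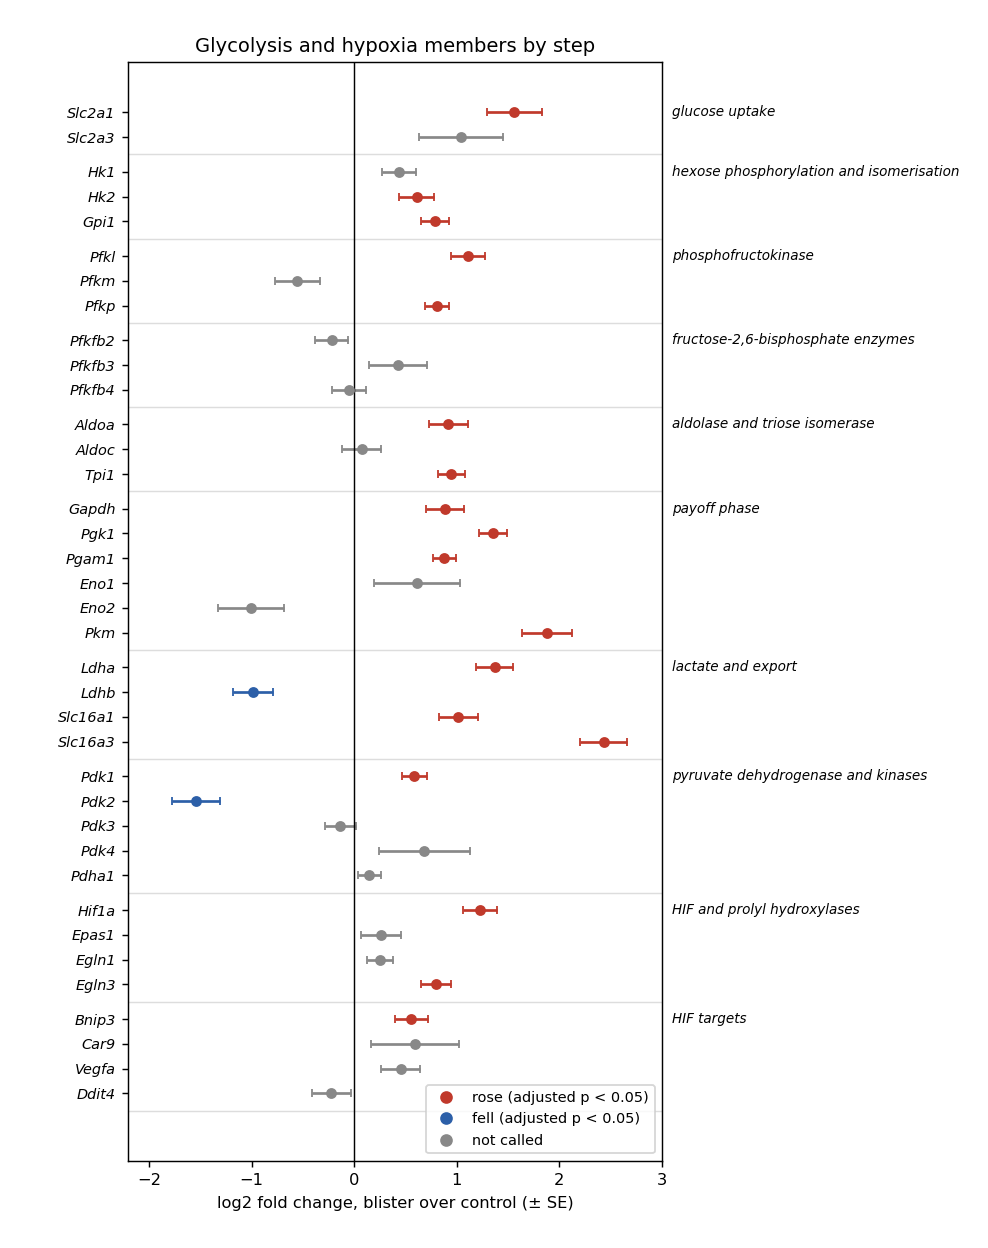
Log2 fold change (blister over control, x axis) with its standard error for each of the 37 genes, ordered by step from glucose uptake to HIF targets. Red points rose, blue points fell and grey points did not pass the test; red points fill most steps up to Slc16a3, the farthest right, while the fructose-2,6-bisphosphate enzymes (Pfkfb2, Pfkfb3, Pfkfb4) stay grey and Pdk2 lies farthest left.

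Glucose enters through GLUT1, the main basal carrier of keratinocytes, which Slc2a1 encodes. Its level was 385, 709 and 394 CPM in blister 1 to 3 and 199, 150.2 and 155 CPM in control 1 to 3. Every blister library lay above every control, and blister 2 stood far above its group. That library also had the highest sum of neutrophil markers (634, 1042 and 320 CPM in blister 1 to 3), whose part in the rise was not tested. Without blister 2, Slc2a1 still rose, with a log2 fold change of 1.22. The other blister libraries also lay above the controls in neutrophil markers (30.4 to 38.7 CPM in control), so leaving out blister 2 does not test their part. The means of 496 ± 185 and 168 ± 27.0 CPM (SD) gave a log2 fold change of 1.56 ± 0.26 (SE, adjusted p = 0.0114). Slc2a3 encodes GLUT3, a high-affinity carrier best known from neurons and leukocytes. It was detected at 4.04, 5.64 and 2.29 CPM in the blister libraries and 1.30, 1.89 and 2.50 CPM in the controls, which overlapped, and did not pass the test (log2 fold change 1.04 ± 0.41, adjusted p = 0.103). Without blister 3 it did (1.34, adjusted p = 0.0401). Shares of a step are given per kilobase of exon, dividing by the merged exon length of all annotated transcripts of a gene. That length can exceed that of the transcript expressed, so comparisons between genes are approximate. Slc2a1 was nearly all of these carriers on this scale, with 99.6 ± 0.112% of the sum in blister and 99.4 ± 0.233% in control.

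Hexokinases phosphorylate glucose and hold it in the cell. Hk2, the inducible form, read 169, 124 and 111 CPM in the blister libraries and 97.2, 85.9 and 81.3 CPM in the controls, without overlap. It rose 1.53-fold (log2 fold change 0.61 ± 0.17, adjusted p = 0.0441), a call that was lost when any library other than blister 3 was left out (adjusted p up to 0.127) and under library size scaling (adjusted p = 0.128). Hk1, the constitutive form, ranged from 68.1 to 102 CPM in blister and from 57.3 to 70.7 CPM in control, overlapped, and passed only without blister 2 (log2 fold change 0.43 ± 0.17 and adjusted p = 0.0959 with all libraries, 0.58 and 0.0416 without it). Hk2 made up 69.0 ± 4.08% of hexokinase per kilobase in blister and 66.4 ± 2.77% in control, a share that overlapped between groups. Gpi1, which turns glucose 6-phosphate into fructose 6-phosphate, stood at 443, 508 and 402 CPM in blister and 264, 275 and 243 CPM in control. The lowest blister value was well above the highest control, and Gpi1 rose 1.73-fold (log2 fold change 0.79 ± 0.13, adjusted p = 0.0117; 0.0525 without control 1).

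Phosphofructokinase, the enzyme of the committed step, is a tetramer of liver (Pfkl), muscle (Pfkm) and platelet (Pfkp) type subunits and the main control point of the pathway. Pfkl read 307, 317 and 229 CPM in blister and 145, 135 and 116 CPM in control. Its groups lay far apart, and it rose 2.16-fold (log2 fold change 1.11 ± 0.16, adjusted p = 0.00826). Pfkp stood at 135, 151 and 143 CPM in blister against 88.3, 84.9 and 72.2 CPM in control and rose 1.75-fold (log2 fold change 0.81 ± 0.12, adjusted p = 0.00814). Pfkm was lower, with 24.9, 13.4 and 19.2 CPM in blister and 26.8, 29.7 and 28.3 CPM in control. These groups did not overlap, yet the difference did not pass the test (log2 fold change -0.56 ± 0.22, adjusted p = 0.103) except under scaling by library size alone (adjusted p = 0.0232), which lowered the median of all genes to -0.25. Per kilobase, Pfkm held 9.80 ± 2.98% of the subunits in blister and 24.8 ± 2.59% in control, while Pfkl held 71.9 ± 4.07% and 57.5 ± 2.19% and Pfkp 18.3 ± 2.61% and 17.8 ± 0.431%. Where counts were not divided by length, these shares were 4.33% and 11.8%, 63.4% and 54.4%, and 32.3% and 33.8%. The subunit mixture was thus richer in the liver type and poorer in the muscle type in each blister library.

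Allosteric drive on this step comes from fructose 2,6-bisphosphate, made and broken down by the PFKFB enzymes. None of the 3 passed the test, in contrast to the steps around them, though the difference between steps was not itself tested. Pfkfb2, which dominates in heart and kidney, stood at 49.6, 47.1 and 66.2 CPM in blister and 67.8, 55.5 and 66.4 CPM in control (log2 fold change -0.22 ± 0.16, adjusted p = 0.345). Pfkfb3, the form with the highest kinase activity and a known HIF target, read 15.1, 24.8 and 14.3 CPM in blister and 12.3, 10.6 and 17.2 CPM in control (0.43 ± 0.28, adjusted p = 0.289), with blister 2 alone above all controls. Pfkfb4, another hypoxia-induced form, read 15.1, 19.5 and 17.1 CPM in blister and 16.3, 16.9 and 20.1 CPM in control (-0.05 ± 0.17, adjusted p = 0.853), a difference close to 0 whose sign varied between alternative fits. Summed per kilobase, the 3 genes gave 13.4 ± 1.34 CPM in blister and 14.1 ± 1.53 CPM in control.

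Aldoa, the widespread aldolase that splits fructose 1,6-bisphosphate, ranked first of the 37 genes in control and second in blister per kilobase of exon. Its level was 1011, 1202 and 834 CPM in blister and 602, 577 and 433 CPM in control. It rose 1.89-fold (log2 fold change 0.92 ± 0.19, adjusted p = 0.0191), a call lost without blister 1, control 1, control 2 or control 3 in turn (adjusted p up to 0.0616). Other genes share 6.43% of its 50-base transcript windows, and the row of its retrogene copy Aldoart1 averaged 24.5 CPM in blister and 13.6 CPM in control. Its brain-type paralogue Aldoc read 23.0, 18.3 and 17.2 CPM in blister and 19.2, 21.4 and 15.1 CPM in control, overlapped, and had a log2 fold change of 0.07 ± 0.19 (adjusted p = 0.801) that turned negative under library size scaling. The Aldoa share of aldolase per kilobase was 98.3 ± 0.336% against 97.0 ± 0.223%. Tpi1, which interconverts the resulting trioses, stood at 488, 470.4 and 417 CPM in blister and 243, 257 and 213 CPM in control. No blister value came near the controls, and Tpi1 rose 1.93-fold (log2 fold change 0.95 ± 0.13, adjusted p = 0.00769).

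Pgk1, the kinase that makes the first ATP of this phase, read 457, 568 and 445 CPM in blister and 190.3, 200.2 and 184 CPM in control. No control came near the blister values, and Pgk1 rose 2.56-fold (log2 fold change 1.35 ± 0.14, adjusted p = 0.00448). The gene is X-linked and kept its call with the Xist level in the fit (adjusted p = 0.0109). Some 53.9% of its 50-base transcript windows recur in other genes of GENCODE M21, nearly all in Pgk1-rs7, so its reads can be split with that copy. Pgam1, the mutase, stood at 78.3, 70.3 and 76.7 CPM in blister and 43.3, 42.6 and 36.8 CPM in control and rose 1.84-fold (log2 fold change 0.88 ± 0.11, adjusted p = 0.00721), with 36.2% of windows shared with Pgam1-ps2.

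Pkm, pyruvate kinase, makes pyruvate and the second ATP. Its level was 2011, 2237 and 1677 CPM in blister 1 to 3 and 669.7, 576 and 366 CPM in control 1 to 3. The lowest blister value was far above the highest control, which was control 1. Pkm rose 3.67-fold, the most of any enzyme of the pathway (log2 fold change 1.88 ± 0.24, adjusted p = 0.00707). On the per kilobase scale it averaged 107 ± 31.0 CPM in control and 395 ± 56.3 CPM in blister. It held the highest level of the 37 genes in blister, ahead of Aldoa and Ldha. In control, Aldoa was higher at 185 ± 31.4 CPM and Ldha about level at 108 ± 10.7 CPM. Where counts were not divided by length, Pkm and Aldoa were level in control, at 538 and 537 CPM. Gene counts merge its splice forms PKM1 and PKM2, which were not told apart here, and 14.2% of its windows recur in pseudogenes. The bases before its start, shown because Pkm was the enzyme with the largest rise, hold 1 match to the HIF letters (RefSeq promoter table, GRCm38.p6, plus strand, chr9:59656977-59657226, the first of the windows listed for Pkm that held a match). Capitals mark the match in this and the later sequences, which run 5′ to 3′ on the gene's strand.
Pkm: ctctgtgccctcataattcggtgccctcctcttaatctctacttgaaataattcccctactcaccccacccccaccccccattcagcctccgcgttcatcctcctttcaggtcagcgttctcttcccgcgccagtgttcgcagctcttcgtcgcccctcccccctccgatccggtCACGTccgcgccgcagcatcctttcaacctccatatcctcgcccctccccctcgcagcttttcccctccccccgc

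Gapdh and Eno1 had few counts. Gapdh, the dehydrogenase of this phase and usually among the most abundant messengers of a cell, was at only 21.8, 22.7 and 30.1 CPM in blister and 11.7, 14.0 and 14.6 CPM in control, from 153 to 355 counts a library. It rose 1.85-fold (log2 fold change 0.89 ± 0.18, adjusted p = 0.0181), a call lost without control 1 or control 2 (adjusted p up to 0.0751) and under library size scaling (adjusted p = 0.0587). Of its 50-base windows, 24.7% recur in 222 other genes, 213 of them pseudogenes. Eno1, the widespread enolase, had only 8 to 27 counts a library, at 1.84, 1.10 and 2.29 CPM in blister and 1.15, 1.61 and 0.739 CPM in control (log2 fold change 0.61 ± 0.42, adjusted p = 0.308). Other genes share 26.0% of its windows, mostly Eno1b, which itself averaged 0.567 CPM in blister and 0.442 CPM in control. Whether shared sequence set these low counts was not tested, and the ratio of Eno2 to Eno1 given below rests on these few counts of Eno1. Eno2, the neuronal enolase, read 4.86, 4.54 and 3.23 CPM in blister and 6.29, 7.0 and 11.9 CPM in control, without overlap. Its log2 fold change of -1.01 ± 0.32 missed the threshold in edgeR (adjusted p = 0.0611) and passed in DESeq2 (adjusted p = 0.0299).

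**Figure D2:**
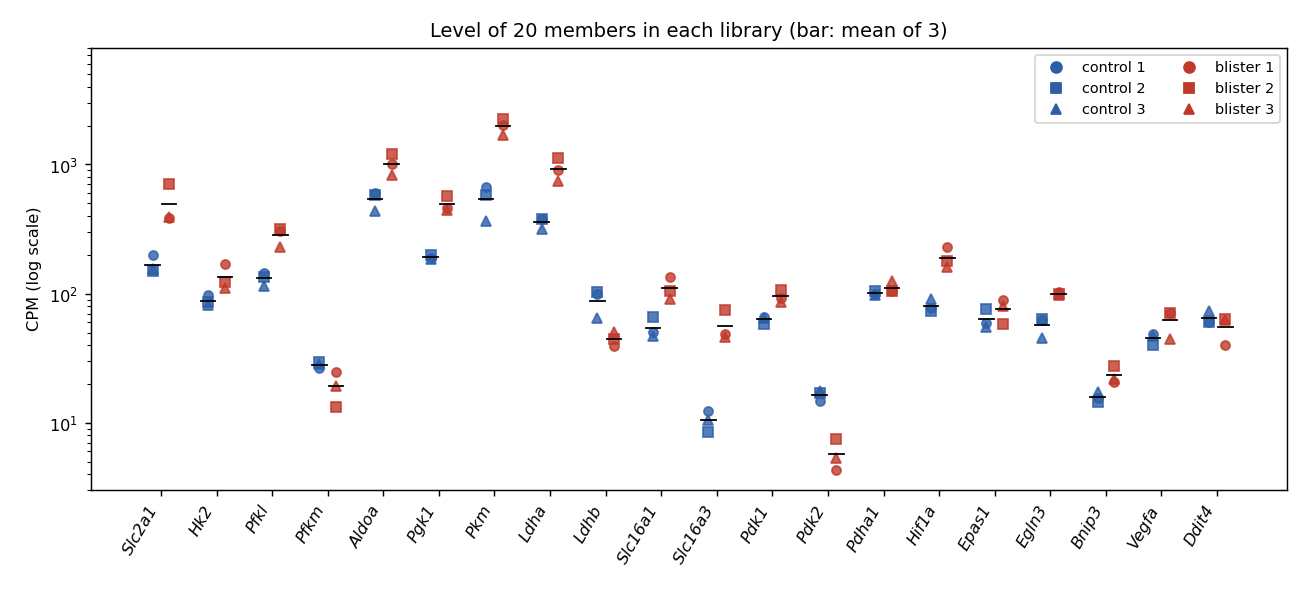
Level in CPM (log axis) of 20 of the genes in each library, with blister libraries in red, control libraries in blue, a marker shape for each replicate number and a black bar at each group mean. The red points of Slc2a1, Pkm, Ldha and Slc16a3 lie above all blue points and those of Pfkm, Ldhb and Pdk2 below. For Pdha1, Epas1 and Ddit4 the ranges of red and blue points overlap.

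Lactate dehydrogenase is a tetramer of A (Ldha) and B (Ldhb) subunits: the A form is known to favour lactate formation and the B form lactate use. Ldha stood at 899, 1129 and 749 CPM in blister 1 to 3 and 382, 376 and 318 CPM in control 1 to 3. All blister values were above all controls, and Ldha rose 2.58-fold (log2 fold change 1.37 ± 0.18, adjusted p = 0.00740). Ldhb stood at 39.3, 44.5 and 50.1 CPM in blister and 98.6, 102 and 64.6 CPM in control. Here all blister values were below all controls, and control 3 was the lowest of its group. Ldhb fell 1.98-fold (log2 fold change -0.99 ± 0.20, adjusted p = 0.0167), a call lost without blister 1, control 1 or control 2 (adjusted p up to 0.0689). A single pseudogene shares 21.0% of its windows, and 9.26% of Ldha windows recur in other genes.

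Per kilobase, Ldhb was 8.43, 7.66 and 12.4% of lactate dehydrogenase in blister 1 to 3 and 35.3, 36.4 and 30.0% in control 1 to 3. The mean share was 9.48 ± 2.51% in blister and 33.9 ± 3.43% in control, and 4.75% and 19.6% where counts were not divided by length. Summed per kilobase, both subunits together were 1.87 times higher in blister. The log2 ratio of Ldhb to Ldha counts, which needs no scaling between libraries, differed by -2.32 (SD 0.40 and 0.22 in blister and control), or 4.98-fold. This was the largest shift of the 15 isoform pairs examined.

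Both promoters are shown because these paralogues were called in opposite directions; they were chosen after the values were seen. The Ldha bases (GRCm38.p6, plus strand, chr7:46845554-46845803) hold 5 matches to the HIF letters on either strand, as CACGTG reads ACGTG on both, and the 50 bases after the start hold 2 more. The Ldhb bases (minus strand, chr6:142507958-142508207) hold 1 match.
Ldha: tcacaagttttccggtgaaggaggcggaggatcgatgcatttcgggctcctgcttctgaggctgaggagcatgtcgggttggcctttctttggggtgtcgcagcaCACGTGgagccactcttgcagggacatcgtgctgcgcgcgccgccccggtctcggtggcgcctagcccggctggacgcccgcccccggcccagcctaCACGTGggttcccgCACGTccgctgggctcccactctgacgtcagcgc
Ldhb: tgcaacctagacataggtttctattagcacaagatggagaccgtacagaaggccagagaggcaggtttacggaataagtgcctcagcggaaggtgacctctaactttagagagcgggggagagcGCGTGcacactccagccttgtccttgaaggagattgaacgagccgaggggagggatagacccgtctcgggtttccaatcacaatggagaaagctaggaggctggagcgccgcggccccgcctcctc

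Slc16a1 encodes MCT1, a widespread lactate carrier, and Slc16a3 encodes MCT4, the low-affinity exporter of highly glycolytic cells and a known HIF target. Slc16a3 stood at 49.1, 74.3 and 46.3 CPM in blister 1 to 3 and 12.3, 8.54 and 10.6 CPM in control 1 to 3. The lowest blister value was well above the highest control. Its rise of 5.39-fold was the largest of the 37 genes (log2 fold change 2.43 ± 0.23, adjusted p = 0.00418). Slc16a1 read 135, 104 and 91.7 CPM in blister and 50.2, 66.2 and 46.9 CPM in control and rose 2.02-fold (log2 fold change 1.02 ± 0.19, adjusted p = 0.0145; 0.0603 without control 1). With the dermal marker level in the fit, Slc16a3 kept its call (adjusted p = 0.00751) and Slc16a1 lost it (adjusted p = 0.0912). The MCT4 share of these carriers per kilobase was 23.3, 37.3 and 29.6% in blister 1 to 3 and 16.9, 9.69 and 15.8% in control 1 to 3. Hence MCT1 remained the larger part in every library, while the MCT4 part was higher in each blister library. The promoter of Slc16a3, the carrier with the largest rise, holds 2 matches close to the start (GRCm38.p6, plus strand, chr11:120948817-120949066).
Slc16a3: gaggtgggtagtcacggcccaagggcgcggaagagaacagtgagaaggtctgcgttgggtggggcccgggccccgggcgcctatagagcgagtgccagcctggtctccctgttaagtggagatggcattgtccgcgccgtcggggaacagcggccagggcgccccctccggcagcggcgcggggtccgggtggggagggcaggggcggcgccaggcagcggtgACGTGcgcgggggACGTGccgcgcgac

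**Figure D3:**
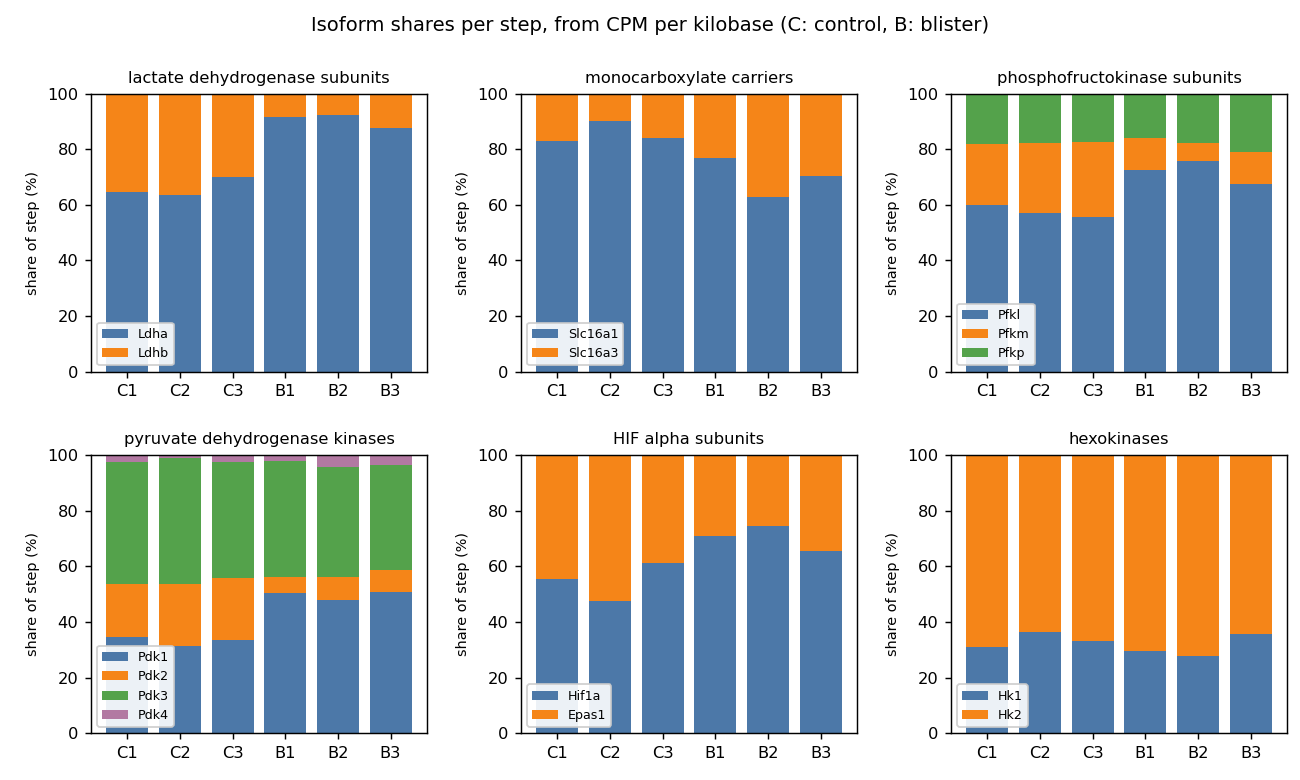
Share of each isoform in its step (percent of the summed CPM per kilobase, y axis) in control libraries C1 to C3 and blister libraries B1 to B3, for 6 steps. The Ldhb part takes 30.0 to 36.4% in the control libraries and 7.66 to 12.4% in the blister libraries, Slc16a3, Pfkl, Pdk1 and Hif1a take larger parts in blister, and the hexokinase parts overlap.

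Pdha1, the catalytic subunit that commits pyruvate to the mitochondrion, read 104, 105 and 125 CPM in blister and 98.9, 104 and 98.4 CPM in control (log2 fold change 0.15 ± 0.11, adjusted p = 0.361), a difference that turned negative under library size scaling. Its kinases, which inactivate the complex, differed in makeup. Pdk1, the hypoxia-induced kinase, stood at 93.3, 107 and 85.4 CPM in blister and 66.2, 58.5 and 65.0 CPM in control and rose 1.5-fold (log2 fold change 0.59 ± 0.12, adjusted p = 0.0188). That call was lost without blister 1, control 1, control 2 or control 3 (adjusted p up to 0.0663) and under library size scaling (adjusted p = 0.124). Pdk2, the widely expressed kinase, stood at 4.31, 7.43 and 5.35 CPM in blister and 14.7, 16.9 and 17.7 CPM in control. All blister values lay well below the controls, and Pdk2 fell 2.91-fold (log2 fold change -1.54 ± 0.24, adjusted p = 0.00876). Pdk3, an X-linked kinase, read 25.2, 28.8 and 20.9 CPM in blister and 27.7, 27.9 and 26.5 CPM in control (-0.14 ± 0.15, adjusted p = 0.533). Pdk4, the kinase of fasting, was low, at 1.84, 4.27 and 2.63 CPM in blister and 2.07, 0.980 and 2.28 CPM in control (0.68 ± 0.44, adjusted p = 0.284).

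Summed per kilobase, the 4 kinases came to 24.6 ± 3.54 CPM in blister and 24.5 ± 0.466 CPM in control. Within that sum Pdk1 took 50.5, 48.1 and 50.9% in blister 1 to 3 and 34.6, 31.3 and 33.5% in control 1 to 3. Pdk2 took 5.74, 8.25 and 7.84% and 19.0, 22.3 and 22.5% in the same order. The mean totals were thus close, while Pdk1 held a larger part and Pdk2 a smaller part in each blister library, with Pdk3 at 39.6 ± 1.86% against 43.6 ± 1.94%. The log2 ratio of Pdk1 to Pdk2 counts was higher by 2.14 in blister, or 4.40-fold.

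Hif1a, the alpha subunit most tied to glycolytic targets, stood at 229, 178 and 160.0 CPM in blister 1 to 3 and 77.5, 72.9 and 91.2 CPM in control 1 to 3. Each blister value exceeded each control, and Hif1a rose 2.34-fold (log2 fold change 1.23 ± 0.17, adjusted p = 0.00740). Epas1, which encodes HIF-2 alpha, read 89.8, 58.1 and 80.0 CPM in blister and 59.0, 76.6 and 55.2 CPM in control, overlapped, and had a log2 fold change of 0.26 ± 0.19 (adjusted p = 0.355) that turned negative under library size scaling and with the dermal marker level in the fit. Per kilobase, Hif1a was 70.7, 74.3 and 65.5% of the pair in blister and 55.5, 47.4 and 61.0% in control. HIF activity is set mainly by protein stability, which RNA does not measure.

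Egln3 encodes PHD3, a prolyl hydroxylase that HIF itself induces. It stood at 103, 98.7 and 96.9 CPM in blister and 62.5, 64.1 and 45.6 CPM in control. The blister values were nearly alike and all above the controls, and Egln3 rose 1.74-fold (log2 fold change 0.80 ± 0.15, adjusted p = 0.0142; 0.0532 without blister 1). Egln1, which encodes PHD2, the main oxygen sensor, read 152, 161 and 124 CPM in blister and 128, 118 and 120.1 CPM in control. It overlapped and passed only without blister 3 (log2 fold change 0.25 ± 0.13 and adjusted p = 0.183 with all libraries, 0.36 and 0.0471 without it), and its sign flipped under library size scaling. Egln3 made up 48.2 ± 3.07% of this pair per kilobase in blister and 38.6 ± 4.33% in control.

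Of the 4 genes grouped here as HIF targets, Bnip3, a mitophagy receptor, was the only one that rose. It read 20.8, 27.4 and 21.7 CPM in blister and 15.6, 14.6 and 17.2 CPM in control. Its groups did not overlap, but the rise was small and close to the threshold (1.47-fold, log2 fold change 0.56 ± 0.16, adjusted p = 0.0470). The call was lost when any library but blister 3 was left out (adjusted p up to 0.147) and under library size scaling (adjusted p = 0.270). Copies elsewhere share 37.0% of its windows. Vegfa, the angiogenic factor, read 70.7, 70.9 and 44.8 CPM in blister and 48.6, 40.2 and 47.2 CPM in control. Blister 3 alone lay among the controls, and Vegfa passed without it (log2 fold change 0.45 ± 0.19 and adjusted p = 0.125 with all libraries, 0.65 and 0.0134 without it). Car9, the surface carbonic anhydrase used as a hypoxia marker, was barely detected, at 1.65, 3.17 and 2.72 CPM in blister and 0.844, 1.82 and 2.22 CPM in control (0.60 ± 0.43, adjusted p = 0.334). Ddit4, which restrains mTORC1 under stress, read 40.0, 63.3 and 62.8 CPM in blister and 60.8, 59.9 and 72.8 CPM in control (-0.22 ± 0.19, adjusted p = 0.424). The 4 genes of this group thus gave 1 small rise, and 14 of the 24 glycolytic genes rose, where 9.74% of all genes did so. Pdk1 and Egln3, described above as induced by hypoxia or HIF, were counted in other groups and rose. The difference between the 4 and the 24 genes was not tested.

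The promoter of Bnip3, the gene of this group that rose, holds 5 matches (GRCm38.p6, minus strand, chr7:138909507-138909756).
Bnip3: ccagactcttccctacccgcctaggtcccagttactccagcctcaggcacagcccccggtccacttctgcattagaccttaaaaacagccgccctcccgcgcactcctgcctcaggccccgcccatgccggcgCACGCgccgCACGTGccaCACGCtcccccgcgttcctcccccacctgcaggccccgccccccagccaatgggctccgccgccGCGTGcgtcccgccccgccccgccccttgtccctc

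The HIF letters were common in these genes whether or not they changed. Of 35 genes with an entry in the RefSeq promoter table (250 bases before to 50 after each start), 32 held ACGTG or GCGTG on either strand, the motifs being counted separately where they overlap. The exceptions were Gpi1, Tpi1 and Eno2. By group, 16 of the 18 genes that rose held a match (88.9%), as did 16 of the 17 others (94.1%). Among genes tested in the fit, 6916 of 10436 with an entry held one (66.3%), and 12628 of 27025 genes in the whole table (46.7%). The share was higher in these genes than in the table and was no higher in those that rose than in the others.

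Isoform ratios were compared within libraries for 15 pairs. Of these, 10 had log2 count ratios that did not overlap between groups, 4 higher and 6 lower in blister. For comparison, the levels of 21.4% of all genes were higher and of 23.2% lower without overlap, which is a share of single genes, and no such share was computed for ratios of other genes. Each of these 10 had an exact two-sided permutation p of 0.1, the smallest that 3 against 3 libraries allow, and 0.15 after Benjamini-Hochberg adjustment over the 15 pairs. Beside Ldhb to Ldha, the ratio of Pfkm to Pfkl was 3.26-fold lower and that of Epas1 to Hif1a 1.96-fold lower. The ratio of Slc16a3 to Slc16a1 was 2.64-fold higher, with a difference of 1.40 on the log2 scale. The remaining differences without overlap were -1.54 for Eno2 to Eno1, -0.84 for Aldoc to Aldoa, -0.73 for Pdk3 to Pdk1, 2.27 for Pdk4 to Pdk2 and 0.56 for Egln3 to Egln1. Pairs that overlapped were Slc2a3 to Slc2a1, Hk2 to Hk1, Pfkp to Pfkl, Pfkfb3 to Pfkfb2 and Pfkfb4 to Pfkfb3, with differences from -0.49 to 0.65. A ratio shows unequal change of its genes and not which of them moved.

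**Figure D4:**
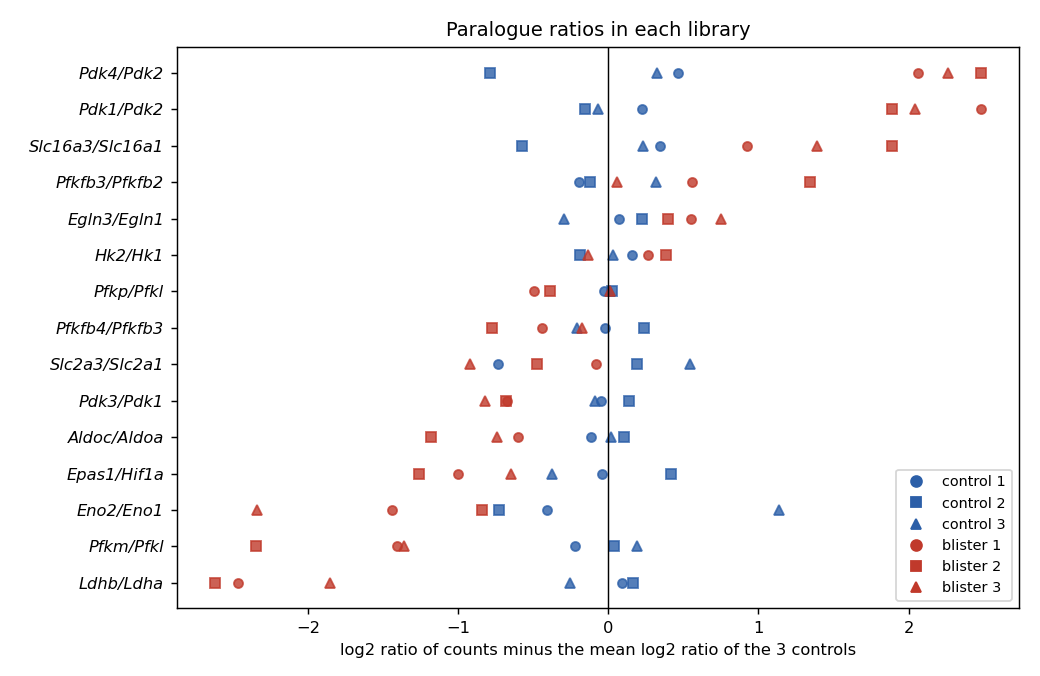
Log2 ratio of the counts of each isoform pair in each library, minus the mean of the 3 controls (x axis), for 15 pairs ordered by the difference; red is blister and blue is control, with a marker shape for each replicate number. Ldhb to Ldha lies farthest left, Pdk4 to Pdk2 and Pdk1 to Pdk2 farthest right, and the pairs of Hk2 to Hk1 and Pfkp to Pfkl sit near 0 with overlap.

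Genes of neighbouring pathways were counted in the same fit, in which 9.74% of all genes rose and 11.6% fell. Of 21 tested genes among other glycolytic isoforms and carriers, 4 rose and 3 fell (median log2 fold change -0.24). The glucose carrier Slc2a10 fell from 4.76 ± 2.09 to 0.382 ± 0.184 CPM (-3.56 ± 0.49, adjusted p = 0.00740), and the high-affinity monocarboxylate carrier Slc16a7 from 17 ± 0.604 to 3.16 ± 2.50 CPM (-2.39 ± 0.47, adjusted p = 0.0164). The genes that rose, named after their values were seen, were Bsg, the chaperone of MCT1 and MCT4 (log2 fold change 0.57 ± 0.15), Hk3, a myeloid hexokinase (1.93 ± 0.49), Adpgk (0.66 ± 0.16) and Ldhd (1.06 ± 0.27). Hk3 rose beside the neutrophil markers given above, whose part in it was not tested.

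Among 17 tricarboxylic acid cycle genes 4 rose and 0 fell (median 0.26). Sdhd, a succinate dehydrogenase anchor, averaged 78.4 ± 3.75 CPM in control and 126 ± 19.4 CPM in blister (0.69 ± 0.13, adjusted p = 0.0160), and Idh3a 82.5 ± 3.39 and 113 ± 12.5 CPM (0.46 ± 0.12, adjusted p = 0.0326). Suclg2 (0.45 ± 0.12) and Mdh2 (0.62 ± 0.17) were the others. Of 10 genes of the pyruvate dehydrogenase complex and the mitochondrial pyruvate carriers, Dlat rose (0.41 ± 0.12, adjusted p = 0.0436) and Dld came next without passing (0.30 ± 0.12, adjusted p = 0.101), and 0 fell (median 0.02). In the pentose phosphate pathway, which branches from glucose 6-phosphate to make NADPH, 2 of 8 rose and 0 fell (median 0.36). These were its cytosolic NADPH-making dehydrogenases, Pgd (161 ± 19.1 against 100.1 ± 9.79 CPM, 0.69 ± 0.13, adjusted p = 0.0161) and G6pdx (154 ± 23.0 against 108 ± 11.9 CPM, 0.52 ± 0.15, adjusted p = 0.0433).

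Glycogen and gluconeogenesis genes numbered 14 tested, of which 1 rose and 3 fell (median -0.30). Pgm2 rose (0.78 ± 0.14, adjusted p = 0.0131), while the glycogen phosphorylase Pygb fell from 148 ± 11.3 to 72.7 ± 20.2 CPM (-1.03 ± 0.20, adjusted p = 0.0154), as did the gluconeogenic enzymes Fbp1 (-3.03 ± 0.87) and Pck2 (-1.08 ± 0.24). Shuttle genes that carry cytosolic NADH into mitochondria showed 2 rises and 2 falls among 9 (median 0.35). Slc25a13 (0.92 ± 0.15, adjusted p = 0.0108) and Got2 (0.64 ± 0.14, adjusted p = 0.0194) of the malate-aspartate shuttle rose, and Gpd1 (-1.31 ± 0.39) of the glycerol phosphate shuttle and its relative Gpd1l (-0.64 ± 0.16) fell.

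Hypoxia genes outside the 37 are given beside the same background of 9.74% rising and 11.6% falling, and nothing particular to them is read from their counts. Of 7 other regulators 0 rose and 1 fell, Arnt2 (3.96 ± 1.06 against 8.96 ± 2.07 CPM, -1.17 ± 0.29, adjusted p = 0.0299), and Hif3a had a log2 fold change of -2.05 ± 0.73 (adjusted p = 0.0798). Of 30 other hypoxia-induced genes 5 rose and 4 fell (median 0.15). Fam162a rose from 163 ± 24.6 to 367 ± 95.2 CPM (1.17 ± 0.22, adjusted p = 0.0146) and the carbonic anhydrase Car12 from 190.2 ± 15.3 to 295 ± 17.4 CPM (0.63 ± 0.12, adjusted p = 0.0146). Adm (1.63 ± 0.39), Higd1a (0.78 ± 0.20) and Stc2 (0.86 ± 0.25) rose as well, and Loxl2 (-2.53 ± 0.65), Ppp1r3c (-1.81 ± 0.44), Plod2 (-1.26 ± 0.36) and Zfp395 (-0.61 ± 0.16) fell. The collagen-modifying genes Loxl2 and Plod2 fell beside the dermal markers given above, whose part in these falls was not tested. With the dermal marker level in the fit 1 gene of this list fell in place of 4. Over all genes, 409 fell in that fit in place of 1626.

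Calls in these neighbouring lists depended on single libraries, on the scaling and on the dermal marker level, as did calls over all genes. Over all genes, 1367 rose and 1626 fell in the main fit, and 306 and 479 without control 1. These counts were 399 and 409 with the dermal marker level and 544 and 2831 by library size alone. Nothing particular to these lists is read from the counts that follow. Over the 6 fits that each left out a library, rises numbered 0 to 6 in the tricarboxylic acid cycle, 0 to 3 in the pentose phosphate pathway, 0 to 5 in the other isoforms and carriers and 0 to 6 in the other hypoxia-induced genes. Leaving out control 1 gave 0 in each of these lists. Falls numbered 0 to 4 in glycogen and gluconeogenesis, 0 to 2 in the shuttles and 0 to 2 in the other hypoxia-induced genes. The pyruvate dehydrogenase list had 1 rise without blister 3 and 0 without each of the others in turn. Each of the 6 libraries, when left out, moved at least 1 of these counts by over 1.5 times. With the dermal marker level in the fit, 0 genes rose in the tricarboxylic acid cycle, the pentose phosphate pathway, the shuttles and the pyruvate dehydrogenase list, 1 rose in the other isoforms and carriers and 2 in the other hypoxia-induced genes. In that fit 0 fell in glycogen and gluconeogenesis, the shuttles and the other hypoxia regulators, and 1 fell in the other isoforms and carriers. By library size alone 0 genes rose in the tricarboxylic acid cycle and in the pyruvate dehydrogenase list, 1 in the pentose phosphate pathway, 1 in the shuttles, 1 in the other isoforms and carriers and 2 in the other hypoxia-induced genes. Under that scaling 6 of the other hypoxia-induced genes fell, as did 5 of the other isoforms and carriers and 5 in glycogen and gluconeogenesis.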

How the data were processed

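Polyadenylated RNA of 6 libraries (3 blister, 3 control) was sequenced. HISAT2 2.0.0 (aligner), featureCounts (counting) and the builds NCBIM37 and mm9 are named in the submitters' processing notes, with no strand or multi-mapping setting given in the sources used here. The deposited values are raw read counts per gene, and 3759 of 24014 genes had none. Within each group, no libraries were copies of each other.

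All genes were fitted together with edgeR 4.0.16 (R 4.3.3): filterByExpr (minimum count 10, total 15), TMM scaling, quasi-likelihood F-tests on the group, Benjamini-Hochberg adjustment, threshold 0.05, two-sided. CPM, given as mean ± SD, divide each count by the TMM-corrected library total. Isoform ratios are log2 count ratios with 0.5 added. Lengths and shared 50-base windows come from GENCODE M21 (GRCm38) by symbol, and promoters from RefSeq GRCm38.p6. The fit was tested on simulated data.

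The members, lists and rules were chosen with earlier results of these data known. All members are named, then the 2 smallest p-values of each pathway list and the most abundant marker of each cell type list; other list genes in the text were named after their values were seen. One gene of the pathway lists is not reported here. Replicate numbers were not taken to pair the libraries in the main fit, as the labels do not say that they do. Alternatives were other scalings and filters, DESeq2 1.42.0, limma-voom 3.58.1, robust edgeR, a replicate block, libraries left out, the 50 most abundant genes left out, and Xist or dermal markers as covariates.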

Additional observations from a re-analysis of the deposited data

How the results depend on the processing

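The fit called 2993 genes (1367 higher, 1626 lower), and 18 and 2 of the 37. Leaving out single libraries gave 785 to 4061 genes called, 11 to 21 of the 37 that rose and 1 to 2 that fell; 785 and 11 came without control 1, 4061 and 21 without blister 3, and genes called numbered 1028 without blister 1, 1299 without control 2 and 1315 without control 3. A single one of the 37 fell without blister 1, control 1 or control 2. The Xist level as covariate gave 1696 genes and the dermal marker level 808, with 10 of the 37 rising. Library size alone gave 544 genes higher and 2831 lower, and 14 and 4 of the 37; upper-quartile scaling gave 988 and 1886. The replicate block, with same-number correlations of 0.212, -0.259 and 0.0107, called 2876 genes and 17 and 2 of the 37, losing Bnip3; not every library correlated best with its own number. With the block, 10 isoform pairs had blister minus control differences of a single sign over the same-number libraries. The count of pairs without overlap was 10 to 14 without single libraries. Neither count could fall below 10, as pairs whose groups do not overlap pass both checks by construction. Signs turned for genes that were not called. The log2 fold change of Pfkfb4 ran from -0.13 to 0.055 without single libraries and was 0.058 without blister 3 and control 3, 0.0051 with Xist and 0.20 with dermal markers. That of Aldoc ran from -0.055 to 0.19 without single libraries and was -0.19 by library size, -0.016 with Xist and -0.19 with dermal markers. Library size turned Pdha1 to -0.10, Epas1 to -0.0019 and Egln1 to -0.0030, and dermal markers turned Eno1 to -0.11, Epas1 to -0.085 and Ddit4 to 0.043. The cause was not tested. Slc2a3, Eno1, Pdk4 and Car9 had too few counts to pass a filter of 5 CPM in 3 libraries and have no value there.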
